A study of Rattus norvegicus with 4 samples.

Results

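The translation initiation and elongation factors of the neonatal rat hippocampus were examined. They were taken as the entries with a gene ID whose symbol starts with Eif1 to Eif6 or with Eef1 or Eef2, leaving out the sex-linked pair Eif2s3x and Eif2s3y, and 60 of the 17445 genes and gene models in the files met this rule. RNA-seq had been made from Wistar pups on postnatal day 1 whose dams were given bisphenol A (BPA) at 5000 µg per kg of body weight daily, or vehicle, from gestation day 1 until birth. There were 4 groups, the control males, the BPA males, the control females and the BPA females, and each had 1 library made from 3 pooled hippocampi. Where 4 values follow each other, they stand in that order. The dams were 10 weeks old in the record, and the labels name no genetic modification in any group.

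Translation begins when initiation factors bring the initiator tRNA and the small ribosomal subunit to the capped end of an mRNA and scan to the start codon. The factor eIF2 carries the initiator tRNA as a complex with GTP, eIF2B recharges eIF2, eIF3 holds the small subunit, and the eIF4 group binds the cap and unwinds the leader. The elongation factors eEF1 and eEF2 then deliver aminoacyl-tRNA and move the ribosome along. In neurons, phosphorylation of eIF2 and binding of eIF4E by its binding proteins are known control points of synaptic protein synthesis.

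Many mRNAs of the translation machinery are known to begin with a C followed by an unbroken run of C and T at the transcription start, which is called a terminal oligopyrimidine tract and which mTOR signalling acts on. Of the 60 genes, 53 had a promoter entry in the RefSeq table of the rat assembly GRCr8. A tract of C followed by at least 6 further C or T, read on the gene's own strand and beginning from 10 bases before to 20 bases after the annotated start, was found in 13 of the 53 (24.5%), against 14.2% of the 10671 genes of the files with a promoter entry and 15.6% of the 27457 genes in the table. A match describes these letters only. The windows of the 4 genes whose tract begins within 2 bases of the annotated start are shown, since the motif is defined at that position. This choice was made after the values were seen. The windows are written 5′ to 3′ on the gene's strand, and carry the tract in capitals.
Eef1a1, chr8:88225050-88225079, minus strand: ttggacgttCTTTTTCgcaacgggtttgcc
Eef1b2, chr9:72074081-72074110, plus strand: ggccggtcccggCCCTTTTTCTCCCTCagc
Eif2a, chr2:144911350-144911379, plus strand: gcatgggtttCTCTTTCCgggacaagatgg
Eef1akmt1, chr15:35826902-35826931, minus strand: gatgctcattggCCCCCTCCTTCCggtcgg
The tract of Eef1a1 was 7 bases long and began at position -1, those of Eef1b2 and Eef1akmt1 were 15 and 12 bases long and began at position 2, and that of Eif2a was 8 bases long and began at position 0, counted from the annotated start as 0. The 12 genes with a tract and a value in all libraries had a median level of 133.5 FPKM, against 38.9 FPKM for the 40 genes without one. FPKM counts fragments per length of the gene model and per depth of the library, so that levels of different genes can be set side by side.

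In the libraries, the 60 genes together took 2.03% and 2.08% of all FPKM in control and BPA males, and 2.11% and 2.22% in control and BPA females. A single gene, Eef1a1, made up 35.7% to 37.3% of that sum. The depth, estimated from the steps between low values, was 8880000, 8860000, 8660000 and 8820000 fragments, which put 706 to 803 fragments behind the median gene of the group and 15.0 to 32.8 behind the lowest one tested. Counting intervals below rest on these estimates and cover counting error only.

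The libraries also differed in tissue that adjoins the hippocampus. The summed level of 7 choroid plexus markers was 266 and 707 FPKM in control and BPA males but 9.49 and 45.6 FPKM in control and BPA females. All 7 were higher in male BPA, but only 2 of them were higher in female BPA. The summed level of 7 meningeal markers was 76.9, 77.4, 319 and 62.3 FPKM in the same order. The 9 listed of 10 markers of hippocampal excitatory neurons summed to 379 to 427 FPKM, and Emx1 had no entry. The 7 listed red blood cell markers summed to 783 to 978 FPKM and 8 cycling cell markers to 105 to 120 FPKM. The part of these tissues in the results below was not tested, and in pooled tissue fewer cells of a type and less RNA per cell cannot be told apart.

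**Figure D1:**
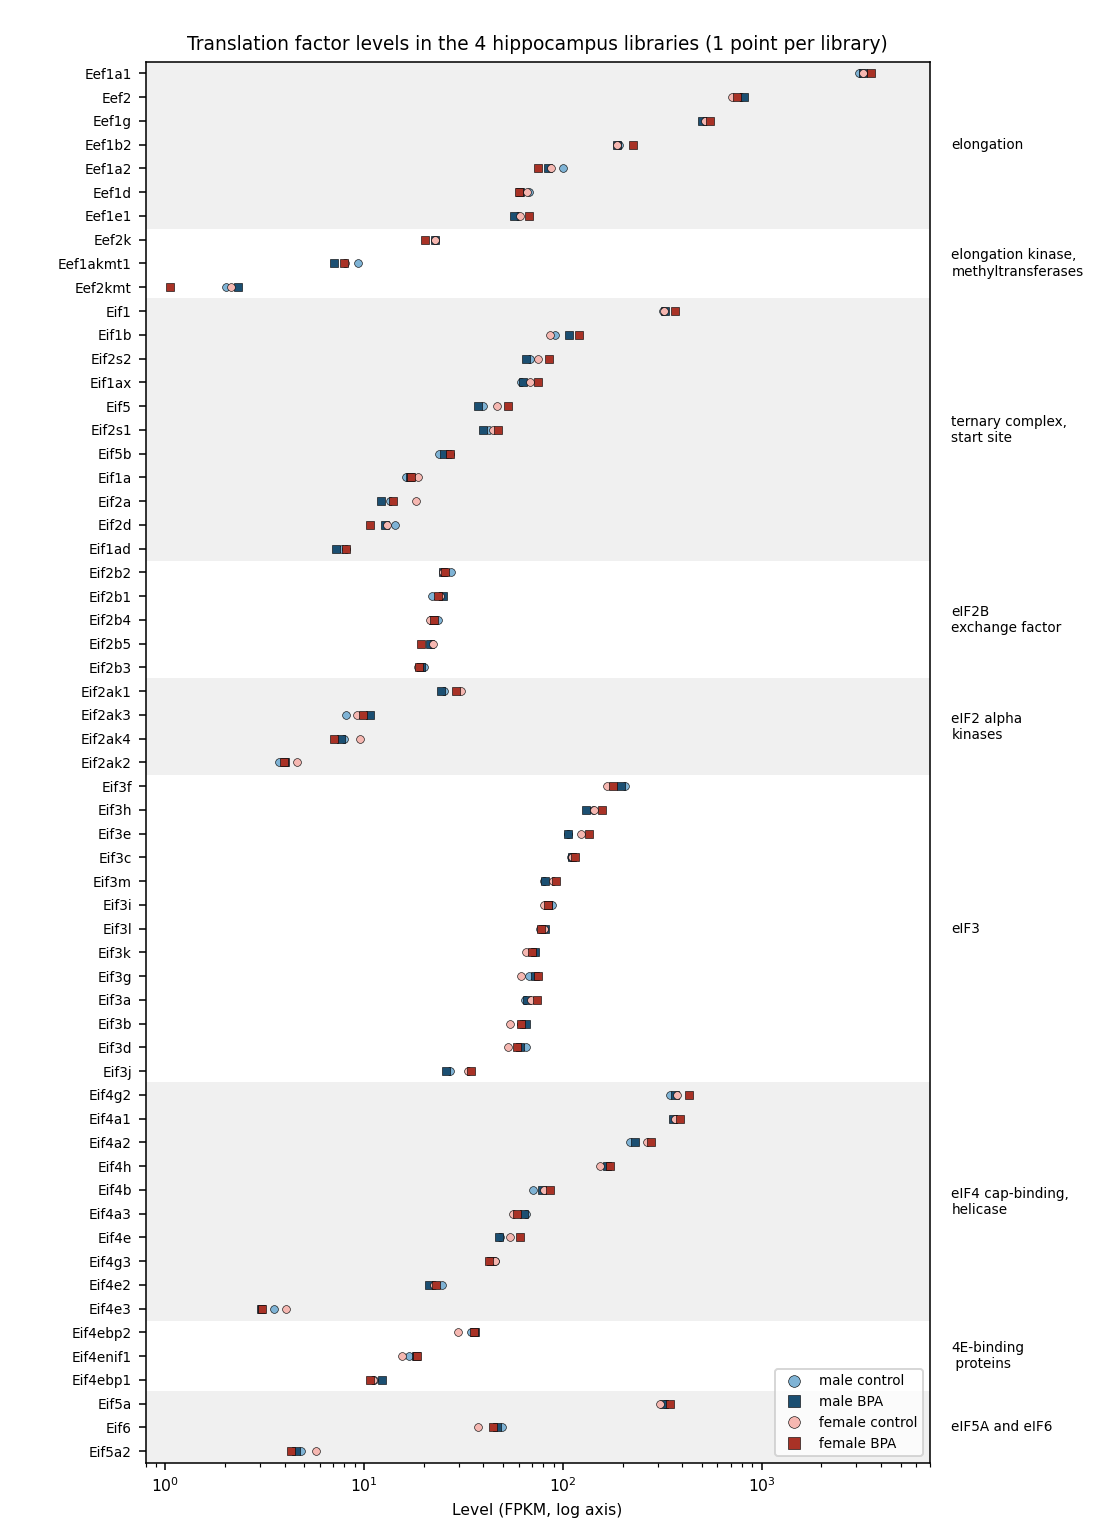
Level of each of the 59 factors listed in all 4 libraries (FPKM, log axis), 1 point per library, with circles for control and squares for BPA, grouped by role and ordered by mean level within a role. Eef1a1 stood above every other gene of the group, the eIF2B subunits lay close together, and the points of a gene spread far less than the genes differed from each other.

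Levels ran over more than 3 orders of magnitude of FPKM. Eef1a1, which encodes the ubiquitous form of the factor that delivers aminoacyl-tRNA, was at 3104 and 3248 FPKM in control and BPA males and at 3226 and 3554 FPKM in control and BPA females. It was followed by Eef2, the translocase of elongation, at 787, 819, 713 and 756 FPKM, and by Eef1g, a subunit of the factor that recharges eEF1A, at 513, 502, 518 and 551 FPKM. Every Eef1a1 value lay above every Eef2 value, and every Eef2 value above every Eef1g value. The next ranks were taken by Eif4g2, Eif4a1, Eif1, Eif5a and Eif4a2, with means over the libraries of 380, 370.5, 335, 326 and 248 FPKM. These neighbours in the order were close: the Eif4a1 values, from 361 to 390 FPKM, fell inside the Eif4g2 range of 346 to 434 FPKM, and the Eif1 and Eif5a ranges overlapped as well. At the other end, Eif4ebp3 was listed for males only, at 0.47 and 0.01 FPKM, and was not tested. Eef2kmt and Eif4e3 were the lowest genes tested, with means of 1.89 and 3.44 FPKM.

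Members of a complex differed in how evenly they were expressed. The 5 eIF2B subunits, Eif2b1 to Eif2b5, had summed levels of 110 to 115 FPKM, and within a library the highest was 1.30 to 1.37 times the lowest. The 13 eIF3 subunits ranged from 27.1 to 205 FPKM in male control and from 34.5 to 180 FPKM in female BPA. Eif3f was the highest and Eif3j the lowest of them in every library, and their ratio was 7.57 and 7.59 in males and 4.98 and 5.22 in females. Between paralogues, the entry of Eef1a1 stood 30.8 to 47.0 times above Eef1a2. Further models of Eef1a1, described below, would raise this ratio. Eif5a, which relieves stalled ribosomes, stood 53.8 to 79.9 times above Eif5a2. The helicase genes Eif4a1 and Eif4a2 were closer, at ratios of 1.67, 1.56, 1.38 and 1.39.

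Whether prenatal BPA exposure altered these genes was asked first within each sex, where 1 library stands against 1 and no test is possible. Differences are given as the BPA library minus the control library of the same sex on the scale of log2(FPKM + 1), called the log2 difference. Among 59 genes, 25 were higher and 34 lower in male BPA, with a median log2 difference of -0.02, against 49.2% and 50.4% of the 13542 genes and models tested. In female BPA 39 were higher and 20 lower, with a median of 0.08, against 43.2% and 56.5%. An absolute log2 difference of at least 0.25 was reached by 3 genes in males (5.08%), against 24.5% of all tested and 6.87% of those with a gene ID and a mean of at least 20 FPKM. Of these 3, 1 was higher and 2 lower, against 11.9% and 12.6% of all tested. In females it was reached by 10 genes (16.9%), against 32.2% of all tested and 14.7% of the abundant ones, with 4 higher and 6 lower, against 10.9% and 21.2%. Both shares were below that of all tested. Among the 45 genes of the group with a mean of at least 20 FPKM, it was reached by 1 in males (2.22%) and 4 in females (8.89%). These shares were below the 6.87% and 14.7% of all genes with a gene ID at that level. Of the 6 genes lower in females, 0 were among the 45. Over all 59 genes, the count in females was 5 after quantile normalization, with 2 higher and 3 lower. After scaling by the median of ratios the count in females was 12, with 7 higher and 5 lower. In males the 3 genes split as 2 higher and 1 lower after quantile normalization. An absolute log2 difference of 1 was reached by 0 genes in either sex, against 1.7% of all tested in males and 2.17% in females.

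Against counting error alone, 7 genes were higher and 4 lower than their 95% interval allows in males, against 15.0% and 14.4% of all tested and 13.5% and 16.7% of the abundant genes. In females 26 genes (44.1%) were higher and 9 lower, against 15.5% and 22.7% of all tested. Among the 45 genes of the group with a mean of at least 20 FPKM, 25 (55.6%) were higher and 4 (8.89%) lower. Of all genes with a gene ID at that level, 25.8% were higher and 18.6% lower. These counts use the deposited values, in which the sign in females went with the level of the gene, as given below. Of the 45 genes of the group with a mean of at least 20 FPKM, 21 (46.7%) were lower in male BPA and higher in female BPA, against 24.9% of all genes with a gene ID at that level and 18.6% of all tested. Across the 4 libraries 25 of 59 genes (42.4%) had their highest level in female BPA, against 21.9% of all tested and 29.7% of genes with a gene ID at 20 FPKM or more. After quantile normalization 22 of 59 had it there (37.3%), against 27.0% and 28.4%, and after scaling by the median of ratios 28 of 59 (47.5%), against 27.7% and 38.6%. The lowest level lay in female control for 17 of 59 genes (28.8%), against 22.2% of all tested and 30.1% of the abundant genes. It lay in male BPA for the same number, against 21.9% of all tested and 22.8% of the abundant genes.

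**Figure D2:**
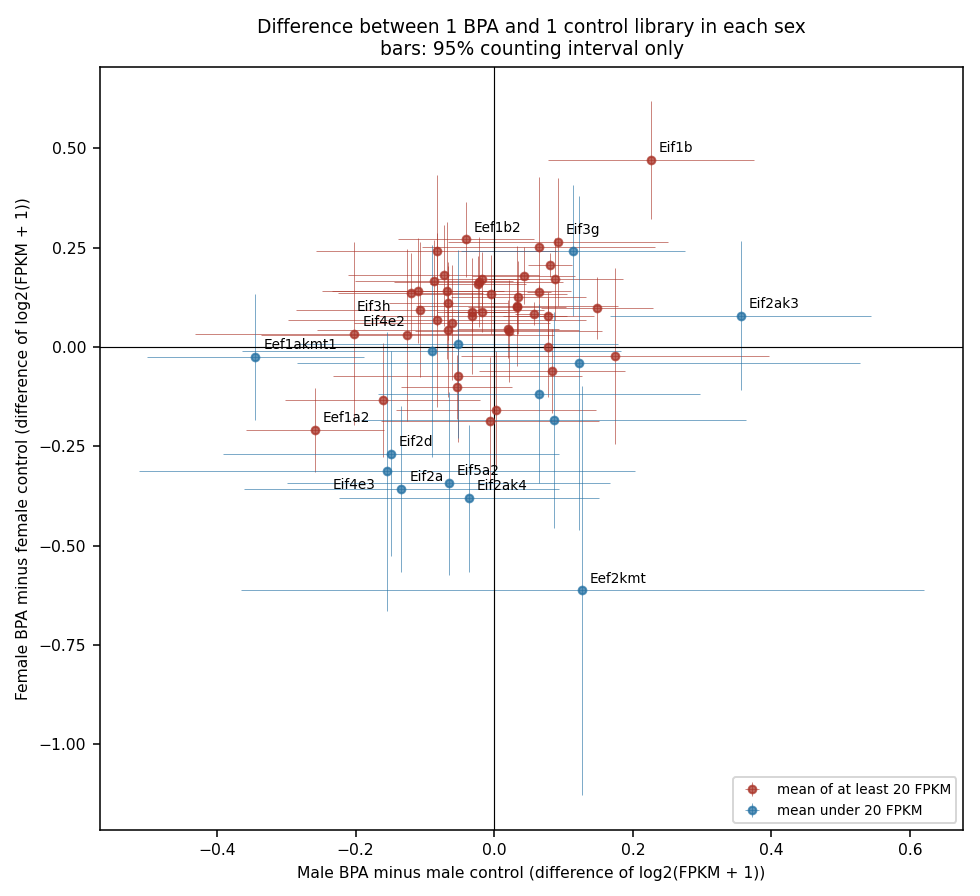
Log2 difference in males (horizontal) against that in females (vertical) for the 59 factors, each from 1 BPA and 1 control library, with bars for the 95% counting interval and colour for a mean of at least or under 20 FPKM. Eif1b lies at the upper right, with 0.23 in males and 0.47 in females, and Eef1a2 at the lower left, with log2 differences of -0.26 and -0.21.

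In females the sign of the log2 difference went with the level of the gene. Of the 45 genes with a mean of at least 20 FPKM, 36 were higher in female BPA, with a median log2 difference of 0.10. Of the 14 genes below that level, 3 were higher and 11 lower, with a median of -0.15. The same gradient was present in the whole files: 68.7% of genes with a gene ID at 60 FPKM or more were higher in female BPA, 48.9% from 20 to 60, 38.9% from 5 to 20, and 29.0% from 1 to 5. In males these shares were 42.9%, 46.5%, 52.1% and 47.7%. Quantile normalization, which gives every library the same distribution of values, brought the 4 female shares to between 46.5% and 51.8% and gave 38 of 59 factors higher in female BPA, with a median log2 difference of 0.05, of which 34 were also higher as deposited. It turned the sign of the female difference of Eef2, Eef1g and Eif4a1, to -0.09, -0.09 and -0.03, and set Eef1a1 in both sexes and Eif4a2 in females to 0. A value of 0 means that the gene held the same rank in both libraries of a sex. The other way, 4 genes with a negative female difference as deposited became positive, namely Eif4ebp1, Eef1akmt1, Eif1ad and Eif2b1, each with a deposited difference between -0.04 and -0.01.

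**Figure D3:**
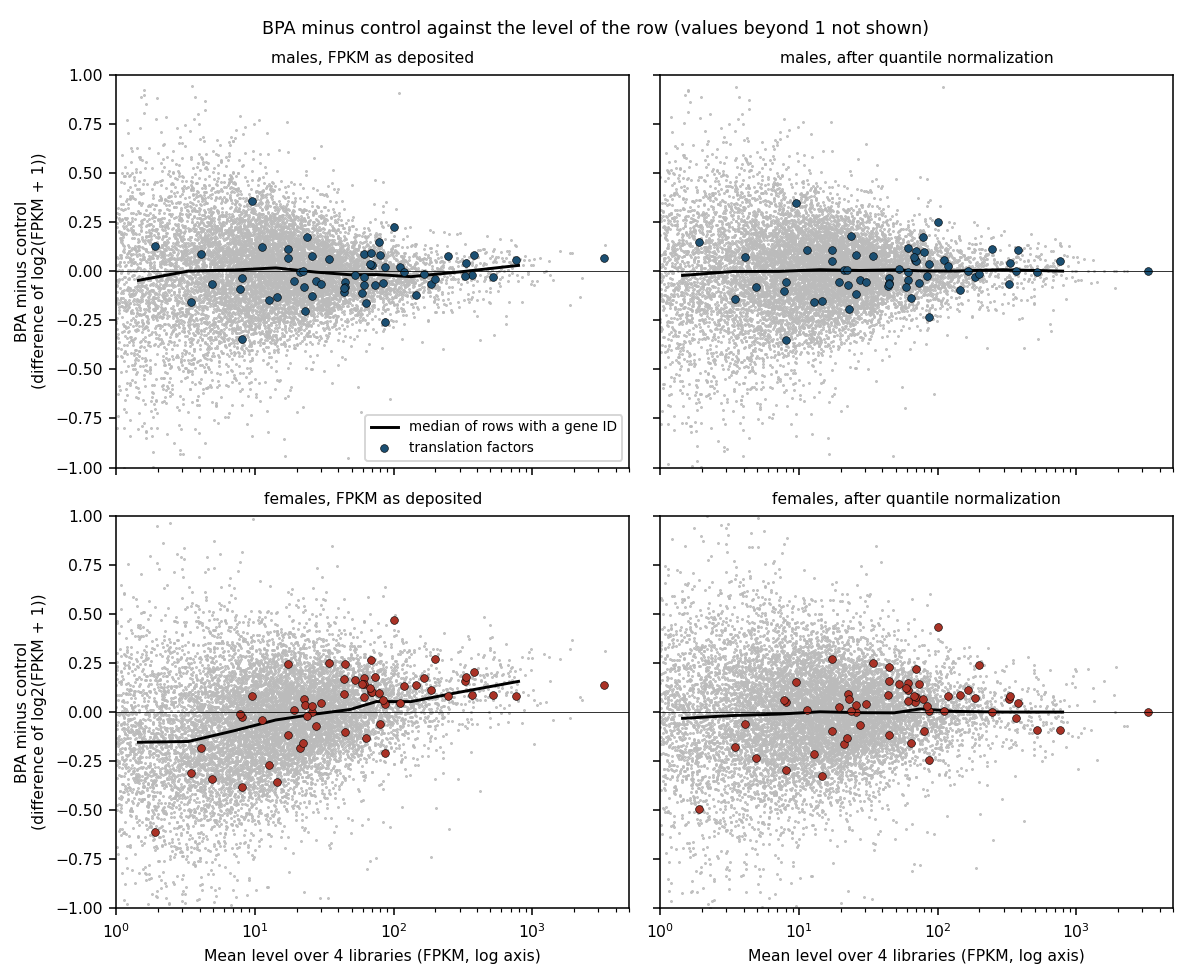
Log2 difference of each gene with a gene ID (grey, values beyond 1 not shown) against its mean level (FPKM, log axis), for males (upper row) and females (lower row), as deposited (left) and after quantile normalization (right). Coloured points are the translation factors and the black line is the median by level. In the deposited female values the line climbs with the level. The median was -0.15 over all genes at 1 to 5 FPKM and 0.07 over those at 60 FPKM or more. After quantile normalization the line lies near 0.

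Among the elongation factors, the pair Eef1a1 and Eef1a2 differed in opposite directions. Eef1a2, the form that replaces Eef1a1 in mature neurons and muscle, was at 101 FPKM in control and 84.0 in BPA males, and at 87.4 and 75.6 FPKM in control and BPA females. Both BPA libraries were below both controls, and its log2 differences of -0.26 in males and -0.21 in females were outside the counting interval in both sexes. Eef1a1 had log2 differences of 0.07 and 0.14. The ratio of the Eef1a1 entry to Eef1a2 was 30.8 and 38.7 in control and BPA males and 36.9 and 47.0 in control and BPA females. With its further models Eef1a1 summed to 5071, 5304, 5265 and 5795 FPKM, so that the ratio would be higher in every library. Eef1d, another subunit of the recharging factor, was at 68.1, 60.8, 66.0 and 60.1 FPKM, and its log2 differences were -0.16 and -0.13. Eef1b2, the catalytic subunit of that factor and the holder of the longest tract shown above, was at 192, 187, 188 and 227 FPKM. Its female BPA library stood above the other libraries, with a log2 difference of 0.27 in females (95% counting interval 0.18 to 0.37) and -0.04 in males. Eef1e1, which belongs to the aminoacyl-tRNA synthetase complex, had log2 differences of -0.07 and 0.14.

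The modifiers of elongation factors were scarce. Eef2k, the kinase that inhibits eEF2, was at 22.8, 22.9, 22.8 and 20.3 FPKM, so that only the female BPA library stood apart, by a log2 difference of -0.16. Eef1akmt1, a lysine methyltransferase of eEF1A, was at 9.31, 7.12, 8.09 and 7.93 FPKM and had the lowest log2 difference of the group in males, -0.34, against -0.03 in females. Its gene model is 7278 bases long and also carries an annotation as interleukin 17D, so its value may include a neighbouring gene. Eef2kmt, a lysine methyltransferase of eEF2, was at 2.04, 2.32, 2.15 and 1.06 FPKM, which corresponds to about 29.0, 32.8, 30.0 and 15.0 fragments. Its entry also carries annotations as other enzymes, a mannosyltransferase among them, so it too may be uncertain. Its log2 difference of -0.61 in females was the lowest of the group and had a 95% counting interval of -1.13 to -0.10, and that in males was 0.13.

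Among the factors of the ternary complex and of start site selection, Eif1b stood out in both sexes. It encodes a close relative of eIF1, which guards against initiation at wrong codons. Eif1b was at 91.5 and 107 FPKM in control and BPA males and at 86.5 and 120 FPKM in control and BPA females, and both BPA libraries were above both controls. The log2 difference was 0.23 in males (95% counting interval 0.08 to 0.37) and 0.47 in females (0.32 to 0.62), the highest of the group in females. Eif1, its paralogue, was at 318, 327, 325 and 368 FPKM, with log2 differences of 0.04 and 0.18. The female difference of Eif1 was 0.08 after quantile normalization and 0.23 after scaling by the median of ratios. Eif2a and Eif2d, which can deliver initiator tRNA by routes other than eIF2, were lower in both BPA libraries than in the control of the same sex. Eif2a was at 13.6, 12.3, 18.3 and 14.1 FPKM with log2 differences of -0.13 and -0.36, and Eif2d at 14.3, 12.8, 13.1 and 10.7 FPKM with -0.15 and -0.27. In males both lay inside the counting interval and in females both lay outside it. The eIF2 subunit genes Eif2s1 and Eif2s2 had log2 differences of -0.11 and -0.07 in males and of 0.09 and 0.18 in females. Eif5, the GTPase activator of eIF2, was at 39.8, 37.4, 47.0 and 52.9 FPKM with -0.09 and 0.17. Summed with a second entry of the same protein it had log2 differences of 0.03 and 0.08, so that the male sign turned. The remaining genes of this role, Eif1a, Eif1ad, Eif1ax and Eif5b, had absolute log2 differences of at most 0.13.

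The eIF2 alpha kinases, which slow initiation under stress, did not share a direction. Eif2ak3, also called PERK and activated by unfolded protein in the endoplasmic reticulum, was at 8.16 FPKM in control and 10.7 in BPA males, and at 9.28 and 9.86 FPKM in females. Its male difference of 0.36 on the log2 scale (95% counting interval 0.17 to 0.54) was the highest of the group in males, while the female difference of 0.08 lay inside its interval. Eif2ak4, also called GCN2 and activated by amino acid shortage, was at 7.93, 7.71, 9.57 and 7.12 FPKM, with log2 differences of -0.04 in males and -0.38 in females (-0.57 to -0.20). Eif2ak1, the heme-regulated kinase, was at 25.4, 24.5, 30.7 and 29.1 FPKM, and Eif2ak2, the kinase activated by double-stranded RNA, at 3.74, 4.03, 4.62 and 3.95 FPKM. The log2 differences of this pair lay inside the counting interval in both sexes. The 5 eIF2B genes had log2 differences from -0.13 to 0.17 in males and from -0.19 to 0.07 in females. The ends of these ranges were Eif2b2 and Eif2b1 in males, at 27.5 and 25.2 FPKM and at 22.2 and 25.1 FPKM in control and BPA, and Eif2b5 and Eif2b4 in females, at 22.2 and 19.4 FPKM and at 21.6 and 22.7 FPKM. Eif2b3 was at 20.1, 19.3, 18.8 and 19.0 FPKM.

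Of the 13 eIF3 subunits, 7 were higher and 6 lower in male BPA, and 12 were higher in female BPA, with median log2 differences of 0.02 and 0.10. Of all genes with a gene ID at 60 FPKM or more, 42.9% were higher in male BPA and 68.7% in female BPA, and 49.2% and 43.2% of all tested. After quantile normalization the same 12 were higher in females and their median was 0.07. With further models of the same protein added, 9 were higher and 4 lower in males, since Eif3h and Eif3j turned positive. The summed level of the subunits was 1167, 1155, 1136 and 1219 FPKM. Eif3g, an RNA-binding subunit, was at 68.0, 72.5, 62.1 and 74.8 FPKM, with log2 differences of 0.09 in males and 0.27 in females. The latter was the largest of the complex among the entries that carry the symbols. With its further model added, Eif3j had 0.28 in females. Eif3d, the subunit that can bind the cap, was at 65.7, 60.8, 53.1 and 58.7 FPKM and differed in opposite directions, by -0.11 and 0.14. Eif3l was the single subunit lower in female BPA, with a log2 difference of -0.06.

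Eif3h encodes a subunit of eIF3 and was among the autism candidate genes chosen for qRT-PCR. It was at 142.5 and 131 FPKM in control and BPA males and at 144 and 159 FPKM in control and BPA females. The male BPA library was the lowest and the female BPA library the highest. These levels correspond to about 1502, 1372, 1495 and 1660 fragments. The log2 difference was -0.12 in males, with a counting interval of -0.23 to -0.02, and 0.14 in females, with an interval of 0.04 to 0.24. A second gene model whose best protein match is rat eIF3 subunit H was at 0.01, 13.8, 0.15 and 0.01 FPKM, that is, at a level above 1 FPKM in male BPA only. The sum of both was 142.5, 145, 144 and 159 FPKM, which gave log2 differences of 0.02 in males and 0.13 in females. The lower male value of the symbol's own entry was thus not present in the sum.

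The eIF4 group had 3 of 10 genes higher in male BPA and 8 of 10 in female BPA, against 49.2% and 43.2% of all tested and 45.4% and 55.2% of the abundant genes. After quantile normalization these counts were 5 and 6. Eif4g2, a scaffold that acts in cap-independent initiation, was at 346, 366, 376 and 434 FPKM with log2 differences of 0.08 and 0.21. Its female difference was 0.05 after quantile normalization and 0.25 after scaling by the median of ratios. Eif4e, the cap-binding protein, was at 48.6, 47.9, 54.5 and 61.2 FPKM with -0.02 and 0.16, and its relative Eif4e2 at 24.6, 21.3, 22.5 and 23.1 FPKM with -0.20 and 0.03. Eif4e3 was at 3.52, 3.06, 4.08 and 3.09 FPKM, lower in both BPA libraries, with log2 differences of -0.15 and -0.31 that lay inside the counting interval in both sexes. Eif4b, which assists the helicase, was at 70.6, 78.3, 80.3 and 86.0 FPKM with 0.15 and 0.10. The binding proteins that sequester eIF4E were led by Eif4ebp2, the main form in brain, at 34.8, 36.4, 29.8 and 35.6 FPKM. The female control library was the lowest, and the log2 differences were 0.06 and 0.25. Eif4ebp1 was at 11.2, 12.3, 11.1 and 10.7 FPKM, with log2 differences of 0.12 and -0.04. Eif4enif1, which carries eIF4E into the nucleus, had log2 differences of 0.11 and 0.24. Eif5a2 was at 4.82, 4.56, 5.76 and 4.33 FPKM with -0.07 and -0.34, and Eif6, which keeps ribosomal subunits apart, at 49.7, 46.9, 37.5 and 44.6 FPKM with -0.08 and 0.24. In Eif4ebp2, Eif4enif1 and Eif6, as in Eif1b and Eif3g above, the female control library was the lowest of the 4.

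Both sexes were then combined, with 2 BPA libraries against 2 control libraries, which is the only BPA comparison with more than 1 library per arm. By limma with Benjamini-Hochberg adjustment over the 13542 genes and models tested, 0 of the 59 genes had an adjusted p under 0.05 (background 0.0%), and the lowest adjusted p was 0.973. At an unadjusted p under 0.05 there was 1, Eif1b (1.69%), against 4.7% of all tested. Its combined log2 difference was 0.35 with an SE of 0.10 (limma adjusted p = 0.973, unadjusted 0.013, higher in BPA in both sexes). Eef1a2 had -0.23 with an SE of 0.11 and Eif3g 0.18 with an SE of 0.10, with unadjusted limma p of 0.083 and 0.119. Without male control 2 genes had an unadjusted p under 0.05, and without female control or without female BPA there were 0. The 2 BPA libraries lay above both controls for 8 genes (13.6%, against 13.8% of all tested) and below both for 9 (15.3%, against 19.9%), shares at or under the background. With 2 libraries against 2 an exact permutation test of a single gene cannot give a two-sided p below 0.333.

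The same fit with the libraries grouped by sex asked whether the levels differed between males and females irrespective of exposure. Here too 0 of 59 genes passed an adjusted p of 0.05 by limma, with a lowest adjusted p of 0.292, against 1 (0.00738%) of all tested. At an unadjusted p under 0.05 there were 9 genes, against 10.6% of all tested. All 9 were among the 45 genes of the group with a mean of at least 20 FPKM. Of all genes with a gene ID at that level, 17.0% had such a p. Of the 9, 8 were higher in females (13.6%, against 3.88% of all tested) and 1 lower (1.69%, against 6.76%). Among the 45 genes these shares were 17.8% and 2.22%, against 6.3% and 10.7% of all genes with a gene ID at that level. Without male control or without male BPA the number was 2 in each case, in place of 9. The 2 female libraries lay above both male libraries for 22 genes (37.3%, against 19.8% of all tested and 23.7% of those with a gene ID and at least 20 FPKM), and below both for 8 (13.6%, against 22.5% and 28.8%). Eif3j, a loosely bound eIF3 subunit, was at 27.1 and 25.9 FPKM in the male libraries and at 33.4 and 34.5 FPKM in the female ones. Eif5 was at 39.8 and 37.4 in males against 47.0 and 52.9 FPKM in females, and Eif3e at 106.3 and 106 against 124 and 136 FPKM. None of these 3 genes overlapped between the sexes, and their log2 differences, females minus males, were 0.35, 0.36 and 0.29 with SEs of 0.09, 0.09 and 0.08 (limma adjusted p = 0.292, 0.292 and 0.302). Eif4a2, Eif2s2, Eif4e, Eif2ak1 and the X-linked Eif1ax were the other genes higher in females, by log2 differences of 0.21 to 0.28, and Eif3f was the lower one, by -0.21, at 205 and 196 FPKM in males against 166 and 180 in females.

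**Figure D4:**
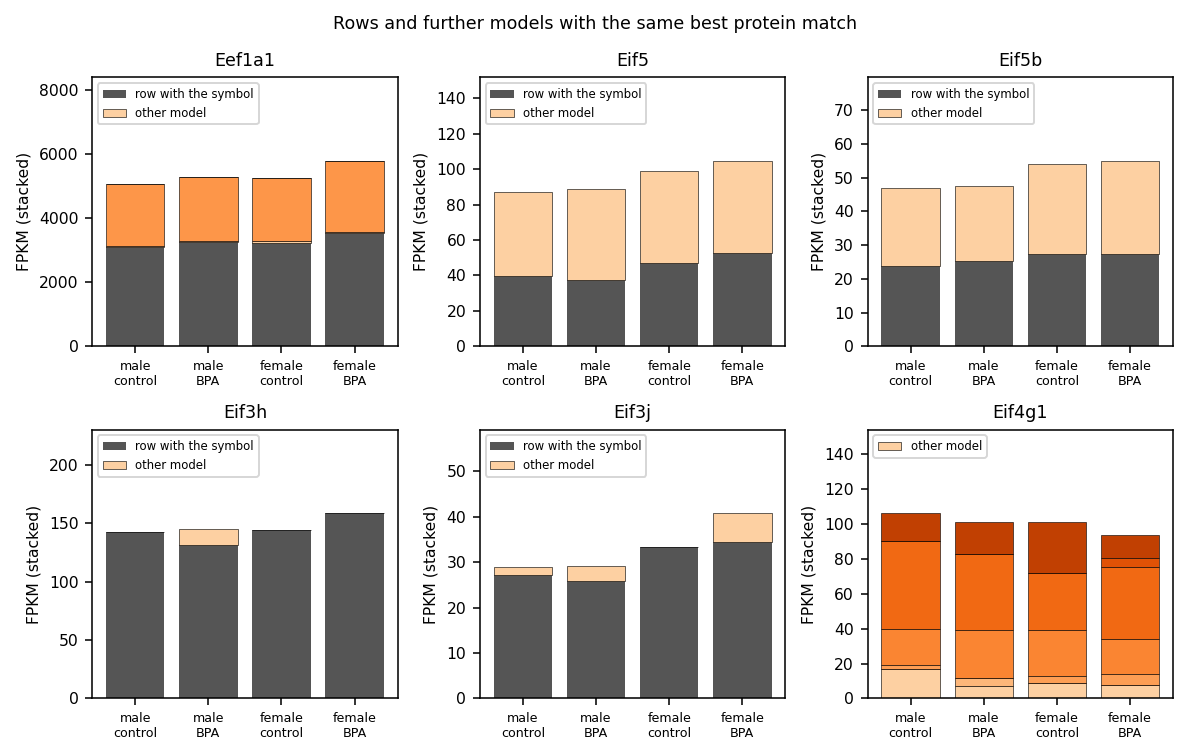
Stacked levels (FPKM, from 0) of the entry that carries the symbol (grey) and of further gene models with the same best protein match (orange shades) in the 4 libraries, for 5 factors and for Eif4g1, which had no entry under its symbol. The second model of Eif3h shows in male BPA, and those of Eif5 and Eif5b are about as high as the entry itself.

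The reads of some factors were divided between gene models. For 10 of the 60 genes there were 15 further models with the same best protein match. Eef1a1 had a second model at 1921 to 2193 FPKM, so that the sum of all 4 models was 5071, 5304, 5265 and 5795 FPKM, with log2 differences of 0.06 and 0.14 that differed little from those of the entry itself. Eif5 had a second entry with a gene ID at 47.2, 51.4, 52.0 and 51.8 FPKM, and the sum differed between the sexes by a log2 difference of 0.21, against 0.36 for the entry alone. Eif5b was split into models of 23.8 to 27.3 and 22.4 to 27.7 FPKM. The second model of Eif3j was at 1.76, 3.23, 0.01 and 6.35 FPKM, and with it the female BPA difference was 0.28 on the log2 scale in place of 0.04. The cap-complex scaffold Eif4g1 appeared only as 7 new models, which summed to 106, 101, 101 and 93.6 FPKM.

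The genes around the factors were taken from fixed lists of termination and recycling, mTOR and MNK signalling, regulators of eIF4E and poly(A)-binding protein, diphthamide and hypusine synthesis, and the integrated stress response. Of 57 listed genes 49 were tested, and an absolute log2 difference of at least 0.25 was reached by 4 in males and 12 in females, against 24.5% and 32.2% of all tested. By limma 0 of the 49 had an adjusted p under 0.05 in the combined comparison, and 1 had an unadjusted p under 0.05. That gene, Pelo, which rescues stalled ribosomes, was at 12.7, 15.8, 12.1 and 17.6 FPKM with log2 differences of 0.29 and 0.51 (limma adjusted p = 0.973, unadjusted 0.015). Among the genes with the same sign in both sexes, ordered by the smaller difference, Pelo was followed by Asns and Rps6kb2. Asns, the asparagine synthetase and an ATF4 target, was at 13.8, 15.9, 14.8 and 19.1 FPKM with 0.19 and 0.35. Rps6kb2, a kinase of ribosomal protein S6, was at 8.59, 9.60, 8.26 and 10.9 FPKM with 0.14 and 0.36. Some genes had larger differences in a single sex. The largest were those of Ddit3 in males (0.66, with 0.03 in females) and Ddit4 in females (0.57, with 0.01 in males). The integrated stress response list had 8 of 10 tested genes higher in male BPA and 8 of 10 in female BPA, against 49.2% and 43.2% of all tested, with median log2 differences of 0.18 and 0.05 against 0.00 and -0.04 for all tested. Its female median was 0.15 after quantile normalization. The medians of the other 4 lists lay between 0.03 and 0.05 in males and between -0.07 and 0.09 in females.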

How the data were processed

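The authors deposited FPKM, 1 value per gene or gene model and library, rounded to 2 decimals and never below 0.01. The submitters' processing notes name HISAT 0.1.6, Bowtie2 2.2.5, RSEM and the build rn6, with no role or order. Values were compared as log2(FPKM + 1) over the 13542 entries listed for both sexes with a mean of at least 1 FPKM. Combined comparisons were fitted with limma 3.58.1 (R 4.3.3, eBayes with trend, no covariate), adjusted over all entries, and tested on simulated data. Since nothing within a group is repeated, p-values measure the spread between pooled libraries of different sex or treatment. Depth was estimated from models of 300 to 1500 bases, where 95.4% to 98.6% of the low values came within 0.15 of a whole number of fragments (30.0% if spread evenly), and counting errors follow from it. Sums joined models by best protein match. Of 60 gene IDs, 59 were found in RefSeq GRCr8 with the same symbol, and that of the Eif5 entry was not found. Python 3.11.15, pandas 2.3.3 and matplotlib 3.10.9 were used. The genes, lists and tests were chosen with earlier results of these data known. Values were given for Eif3h, the 8 highest and 3 lowest genes, in each sex the 3 largest differences each way, the 5 largest in 1 direction in both sexes, the 3 largest opposite ones, the 3 lowest limma p of each fit, paralogue pairs, eIF2 alpha kinases, eIF2B subunits, binding proteins of eIF4E and 3 pathway genes. Other genes were added by role, or by the size of the difference in a single sex, after their values were seen. Alternatives were quantile normalization, scaling by the median of ratios, dropping the filter or raising it to 5 FPKM, a pseudocount of 0.1, sums of models, a covariate, leaving out each library, and unadjusted p.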

Additional observations from a re-analysis of the deposited data

Results flagged for a closer look

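Eif3h was flagged because its log2 difference was -0.12 in males and 0.14 in females, and the difference between the sexes was not tested. The second model of eIF3 subunit H was flagged because it was listed at 13.8 FPKM in male BPA and at 0.15 FPKM or less in the other libraries. A second model of Eif3j, at 6.35 FPKM in female BPA and 0.01 in female control, and a model of Eif4g1, at 5.10 FPKM in female BPA and 0.01 in female control, were flagged as signal outside the entries that the comparisons used. Groups of 1 library could not be examined for an outlying value.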

How the results depend on the processing

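Under every alternative run, 0 of the factors had an adjusted p under 0.05 in the BPA and in the sex comparison. At an unadjusted p the counts were 1 for BPA and 9 for sex, and over the other alternatives they ran from 0 to 2 and from 2 to 13. With sex as a covariate the lowest adjusted p for BPA was 0.356, and with treatment as a covariate the lowest for sex was 0.139. Quantile normalization took the number of factors past a log2 difference of 0.25 in females from 10 to 5. The cause was not tested. Over 1208 values of a named gene under an alternative, the sign turned in 75, and in 69 of these the reported log2 difference was under 0.1 in size. Leaving out a library accounted for 46 of the 75. With 1 library per group, a difference within a sex cannot be separated from one between pools, and depth limits the genes under 20 FPKM most. The labels give no replicate numbers, so BPA and control can be paired by sex only, which is the fit with sex as a covariate. It called 0 factors at an adjusted p under 0.05 and 2 at an unadjusted p.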
